A study of Mus musculus with 22 samples.

Results

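Lung RNA was followed for 33 genes of the unfolded protein response and of protein folding in the endoplasmic reticulum (ER) in a mouse model of allergic airway disease with exposure to farm dust particles. The genes were chosen by symbol, and all 33 were found among the 24405 gene rows of the count tables. They comprise 3 large chaperones, 6 co-chaperones and small ER proteins, 2 lectin chaperones, 5 folding isomerases, 5 regulators, 7 genes of ER-associated degradation and 5 genes of protein entry. All 33 passed the filter on low counts in each comparison.

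The mice were C57BL/6 animals that the design text calls old and wild type, and the caudal lobes of the right lung were used. The first group, here the OVA + PM lungs, had 5 libraries from the arm sensitised with the egg allergen ovalbumin (OVA) and exposed to particulate matter (PM) from a goat farm at a dose of 3 µg. The OVA lungs were 6 libraries of that arm with no PM, the saline + PM lungs were 5 libraries from the saline arm with the same PM dose, and the saline lungs were 6 libraries with neither. The protocol text names OVA/Sal and OVA/OVA mice, so that the saline arm may have had OVA before a saline challenge, and both arms are called by their labels here. No transgene or further treatment is given for any group, and the design text gives 5 samples per group where the groups without PM held 6. Nothing in the labels states that each library is a separate animal, so a p-value here reflects the variation among these libraries, which could be technical. The sample numbers of the libraries with PM run in a different series from those of the libraries without it, and PM cannot be told apart from whatever the numbering stands for.

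Secreted and membrane proteins are threaded into the ER through the Sec61 channel, lose their signal peptide there, and are folded by chaperones and by enzymes that form disulphide bonds. When unfolded protein builds up, the sensors IRE1, PERK and ATF6 raise the folding and degradation machinery through the transcription factors XBP1, ATF4 and ATF6, which is the unfolded protein response. Antibody-secreting plasma cells and mucus-secreting goblet cells carry a large ER, and XBP1 is needed for the secretory capacity of plasma cells. Gene counts show the amount of mRNA and give neither the splicing of Xbp1 mRNA, the cleavage of ATF6 protein nor the translation of Atf4 mRNA.

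Several of these promoters hold the ER stress response element (ERSE), a site at which ATF6 and XBP1 are known to act together with the factor NF-Y. The element is CCAAT, then 9 bases of any kind, then CCACG, and it was searched on both strands from 250 bases before to 50 bases after each RefSeq transcription start (GRCm38.p6). Promoters were found for 27 of the 33 genes, and those of Hyou1, Manf, Atf6, Derl1, Sec61a1 and Sec11c were not among them. ERSE was present in 8 of these 27 genes (29.6%), against 39 of all 32851 promoters (0.119%). Genes of this response were chosen for the list, and ERSE is an element of the same response, so the higher share is no independent support. The 9 matches are shown in the direction of the element, with the CCAAT and CCACG blocks in capitals. The position of each is that of the first motif base counted from the start site in the direction of the gene.
Hspa5: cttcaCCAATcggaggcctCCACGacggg
Hsp90b1, far site: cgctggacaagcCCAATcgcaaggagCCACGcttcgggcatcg
Hsp90b1, near site: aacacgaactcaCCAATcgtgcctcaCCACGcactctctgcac
Dnajc3: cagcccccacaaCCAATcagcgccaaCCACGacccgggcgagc
Creld2: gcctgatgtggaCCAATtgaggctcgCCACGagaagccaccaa
Calr: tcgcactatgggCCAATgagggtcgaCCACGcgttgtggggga
Canx: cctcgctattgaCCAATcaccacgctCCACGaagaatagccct
Pdia6: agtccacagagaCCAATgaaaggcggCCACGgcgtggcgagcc
Syvn1: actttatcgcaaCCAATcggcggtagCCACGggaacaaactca
The windows were chr2:34772020-34772048 on the plus strand for Hspa5 (position -65) and chr10:86705626-86705668 on the minus strand (position -212) and chr10:86705521-86705563 on the plus strand (position -107) for Hsp90b1. They were chr14:118937815-118937857 on the plus strand for Dnajc3 (-105), chr15:88819508-88819550 on the minus strand for Creld2 (-126) and chr8:84847063-84847105 on the plus strand for Calr (-162). They were chr11:50325788-50325830 on the minus strand for Canx (-145), chr12:17266479-17266521 on the plus strand for Pdia6 (-98) and chr19:6046520-6046562 on the plus strand for Syvn1 (-44). The strand given is that of the printed letters, so the sites of Calr and Creld2 and the near site of Hsp90b1 run against the direction of their gene. The window of Hspa5 is shorter because the site lies inside the gene as GENCODE annotates it.

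The related element ERSE-II, which is ATTGG, 1 base of any kind and CCACG, was found in 2 of the 27 genes (7.41%), against 12 of all 32851 promoters (0.0365%). These were Herpud1 and Dnajb11, shown here in the same way.
Herpud1: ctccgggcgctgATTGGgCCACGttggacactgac
Dnajb11: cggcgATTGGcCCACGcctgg
The windows were chr8:94386365-94386399 (position -52) and chr16:22857847-22857867 (position 7, within the transcript), both on the plus strand. The XBP1 core motif TGACGTGG was in 222 promoters (0.676%) and the ATF4 motif TGATGNAAT in 317 (0.965%), and neither was found within these windows of the 27 genes. Of 102 further genes of the same pathways, 78 had a promoter in the table, and 1 of them, Derl3, held ERSE. Matches are given as a description of the sequence, not as bound sites, and their shares are no test of the gene list.

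Libraries held 0.302 M to 28.0 M counts (M, mega), and 3 of the 22 held under 2 M (replicates 4 and 5 of the OVA + PM lungs and replicate 4 of the OVA lungs). Levels are given in CPM, counts relative to a library's size in M counts, with 1 scaling over all 22 libraries. Alveolar type 2 markers such as the surfactant genes summed to 28600 CPM or more in every library, as the lung label has it. A single library in each OVA group stood apart from the others of its group. Goblet cell markers summed to 587 CPM in replicate 4 of the OVA + PM lungs, against 4881 to 9069 CPM in the other 4 of that group, and to 902 CPM in replicate 2 of the OVA lungs, against 5343 to 8929 CPM in the other 5. The ER genes were also low in these 2 libraries. The median log2 ratio of the 33 genes to the saline mean was -0.04 in replicate 4 of the OVA + PM lungs and -0.02 in replicate 2 of the OVA lungs, and 0.19 to 0.55 in the other 9 OVA libraries. Results are given with both libraries, and values without 1 of them are stated where a call or a count changed.

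**Figure D1:**
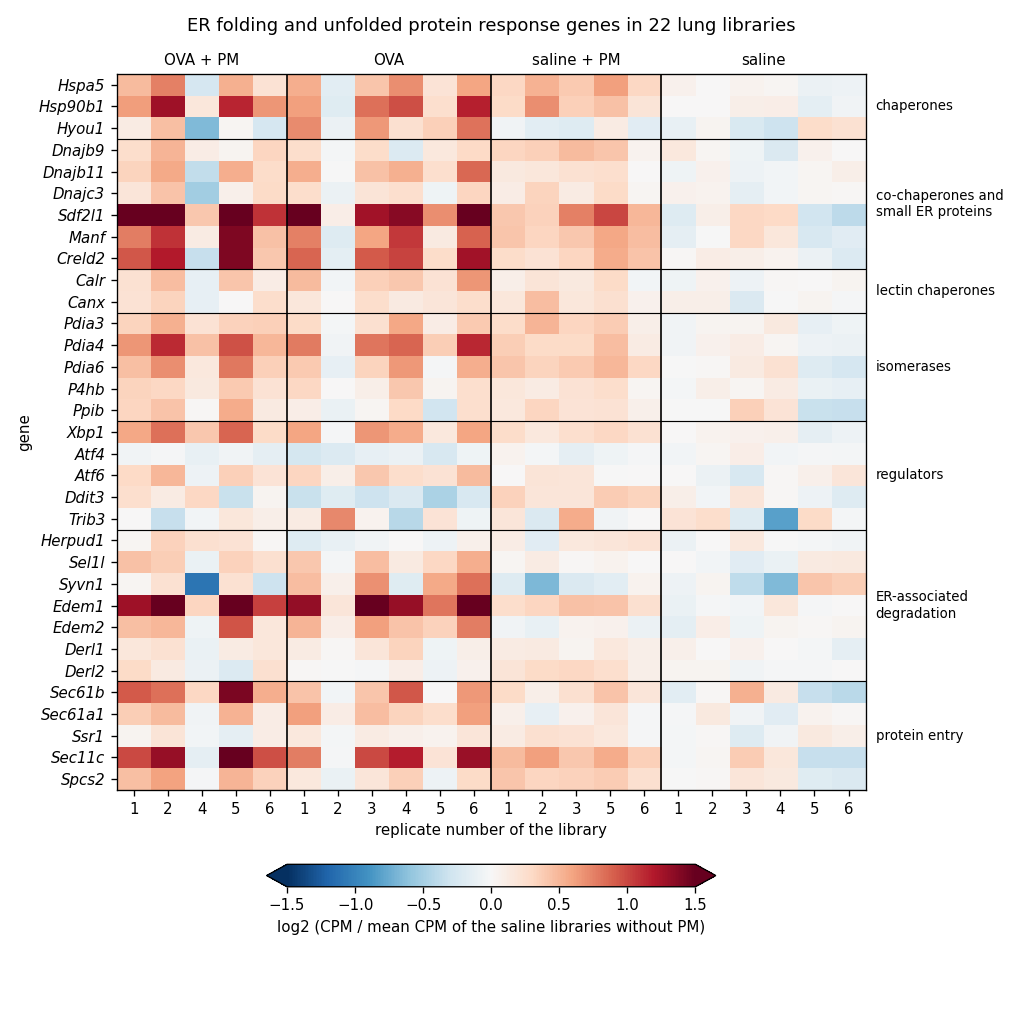
Level of each of the 33 genes (rows, grouped by role) in each library (columns, by group and replicate number), as the log2 ratio of its CPM to the mean CPM of the 6 saline lungs, with colours limited at 1.5 either way. Edem1, Sdf2l1, Creld2, Pdia4 and Sec11c are dark red in most OVA libraries, the saline + PM lungs are pale red across most rows, and replicate 4 of the OVA + PM lungs and replicate 2 of the OVA lungs are pale.

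In OVA lungs 16 of the 33 genes rose and 1 fell relative to saline lungs, and the changes were largest for the degradation factor Edem1 and the co-chaperone Sdf2l1. The median log2 fold change of the 33 was 0.35 (range -0.26 to 1.33), against -0.02 over all genes. All 3 chaperones rose, as did 4 of 6 co-chaperones, 1 of 2 lectin chaperones, 1 of 5 isomerases (Pdia4), 2 of 5 regulators (Xbp1 and Atf6), 3 of 7 degradation genes (Edem1, Edem2 and Sel1l) and 2 of 5 entry genes (Sec61a1 and Sec11c). The gene that fell was Ddit3, which encodes the stress factor CHOP. Of the 14632 genes tested, 14.4% rose and 9.27% fell (23.6% in either direction), by edgeR's quasi-likelihood test with Benjamini-Hochberg adjusted p under 0.05, as for all calls here. Correcting each library for length and GC gave a split over all genes of 2295 higher and 2460 lower, against 2100 and 1356 uncorrected. Of the 33, 2 (Edem1 and Edem2) had every OVA library above every saline library and 1 (Atf4) every one below, against 6.82% and 3.68% of all genes. In the same libraries plasma cell markers summed to 675 to 4050 CPM in OVA lungs and 498 to 742 CPM in saline lungs. In a whole lobe more cells of a type and more RNA per cell cannot be told apart, and the part of plasma cells was not tested. Without replicate 2 of the OVA lungs 22 of the 33 rose, with Edem1 at 1.48, Sdf2l1 at 1.42 and Hspa5 at 0.52. Without replicate 6 it was 12. Over all genes 4127 and 2554 were called in either direction in these 2 runs, against 3456 with all libraries. The 12 genes Atf6, Calr, Creld2, Dnajb11, Edem1, Edem2, Hsp90b1, Pdia4, Sdf2l1, Sec11c, Sec61a1 and Xbp1 kept their call whichever library was left out.

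With PM in both arms, 10 of the 33 genes rose and 0 fell in OVA + PM lungs relative to saline + PM lungs. Edem1 and Sdf2l1 again changed most, and the other 8 were Sec11c, Sec61b, Creld2, Edem2, Pdia4, Xbp1, Sel1l and Atf6. The median log2 fold change of the 33 was 0.14 (range -0.19 to 1.10), against -0.01 over all genes. None of the 3 chaperones passed in the main fit, although all of them passed without PM. Hsp90b1 passed with DESeq2, a replicate block, the length and GC correction with or without that block, and without the libraries under 2 M counts. So did Manf and Sec61a1. Whether the OVA effect differs with PM is the interaction test given later. Of the 14250 genes tested, 13.2% rose and 9.57% fell (22.8% in either direction). With scaling by library totals 1509 genes were higher and 1922 lower, against 1880 and 1364 with trimmed means. Every OVA + PM library lay above every saline + PM library for 6.56% of all genes and below for 5.99%, and for 0 of the 33. For 9 of the 33 the OVA + PM libraries other than replicate 4 all lay above, and the share of all genes was not counted that way. Leaving out a library can only raise such a count, so this count cannot be set against the 6.56%. Without replicate 4 of the OVA + PM lungs 14 of the 33 rose, with 3483 of all genes called in either direction, against 3244 with it. Without replicate 2 of that group 6 of the 33 rose. The genes Edem1, Edem2, Pdia4, Sdf2l1, Sec11c and Sec61b kept their call whichever library was left out. With DESeq2 Creld2, Atf6 and Sec11c did not pass, with library totals Xbp1, Atf6 and Sel1l did not, with all 4 groups in 1 fit Creld2, Atf6 and Sel1l did not, and with no filter Atf6 did not. No gene was lower by edgeR at an unadjusted p under 0.05 or by DESeq2.

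In saline + PM lungs 15 of the 33 genes rose and 0 fell relative to saline lungs. The 15 were Hspa5 and Hsp90b1 among the chaperones, Sdf2l1, Manf, Creld2 and Dnajb9, the disulphide isomerases Pdia3, Pdia4 and Pdia6, the regulators Xbp1 and Ddit3, the degradation genes Edem1 and Derl2, and Sec11c and Spcs2 of the signal peptidase. Their log2 fold changes were 0.24 to 0.67, and the median of the 33 was 0.24 (range -0.24 to 0.67), against 0.01 over all genes. Of the 14496 genes tested, 5.47% rose and 7.37% fell (12.8% in either direction). For 11 of the 33 every saline + PM library lay above every saline library, and for 0 every one lay below, against 2.68% and 3.23% of all genes. No gene of the 33 was lower by edgeR at an unadjusted p under 0.05 or by DESeq2, and DESeq2 called 17 higher. The plasma cell sum was 817 to 1290 CPM in saline + PM lungs and 498 to 742 CPM in saline lungs, and the part of these cells was not tested. Across all genes log2 CPM changed by -0.073 ± 0.0133 per doubling of transcript length in saline + PM lungs (SD, n = 5) and by 0.0773 ± 0.160 in saline lungs (n = 6), relative to the mean of all libraries. Correcting for length and GC brought the median of the 33 to 0.16, and Dnajb9, Pdia4, Ddit3 and Derl2 then did not pass while P4hb (0.27), Sel1l (0.15) and Ssr1 (0.21) did. The calls lay close to the threshold. Without replicate 5 of the saline + PM lungs 2 genes passed, Edem1 and Hspa5, without replicate 1 of that group 6 passed, without replicate 3 it was 9, and without replicate 5 of the saline lungs 8 passed. With all 4 groups in 1 fit 7 passed (Hspa5, Dnajb9, Pdia3, Pdia6, Ddit3, Derl2 and Spcs2). Over all genes that fit called 681 higher and 1268 lower, against 793 and 1069 in the main fit. Without replicate 5 of the saline + PM lungs 490 genes were called in either direction, against 1862 with all libraries.

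In OVA + PM lungs 1 of the 33 genes, Ddit3, rose and 0 fell relative to OVA lungs. The call of Ddit3 was lost with scaling by library totals, with the length and GC correction. The median log2 fold change was 0.08 (range -0.51 to 0.44), against 0.00 over all genes. Of the 14657 genes tested, 2.27% rose and 6.87% fell (9.14% in either direction), or 332 and 1007 genes. The split was 184 and 1870 with scaling by library totals, which moved the median of all genes to -0.107, and 559 and 1026 with DESeq2. No gene of the 33 had OVA + PM libraries all above or all below the OVA libraries, against 1.39% and 2.13% of all genes. At an unadjusted p under 0.05, 4 were higher and 2 lower by edgeR, and DESeq2 called 1 higher and 0 lower. The values furthest below 0 were those of Syvn1, the ubiquitin ligase of ER-associated degradation (-0.51 ± 0.18, adjusted p = 0.0801), and of the chaperone Hyou1 (-0.44 ± 0.17, adjusted p = 0.113). Without replicate 2 of the OVA lungs both passed, with -0.58 for Syvn1 and -0.53 for Hyou1, and without replicate 4 Syvn1 (-0.57) and Sec61b (0.53, higher) did. Without the 3 libraries under 2 M counts 3 of the 33 were higher and 1 lower, and over all genes 1497 were higher and 1975 lower.

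The PM effect was also compared between the arms in 1 fit of the 4 groups. None of the 33 genes passed, and 14 of 14942 genes did, all 14 with the PM value lower in the OVA arm (0.0937%) and 0 with it higher (0%). By edgeR at an unadjusted p under 0.05 there was 1 of the 33, and DESeq2 called 0. That gene was Hspa5, with a difference of -0.46 ± 0.20 (adjusted p = 1) on the log2 scale. The difference was below 0 for 28 of the 33, with a median of -0.18, against 0.01 over all genes. Without replicate 4 of the OVA + PM lungs the median was -0.10 and Hspa5 was at -0.35. Without replicate 2 of the OVA lungs 27 genes passed, and without both libraries 22 did, with 0 of the 33 among the calls whichever library was left out. The comparisons share their groups of libraries, so their values are given side by side and no overlap between them is taken as a result.

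**Figure D2:**
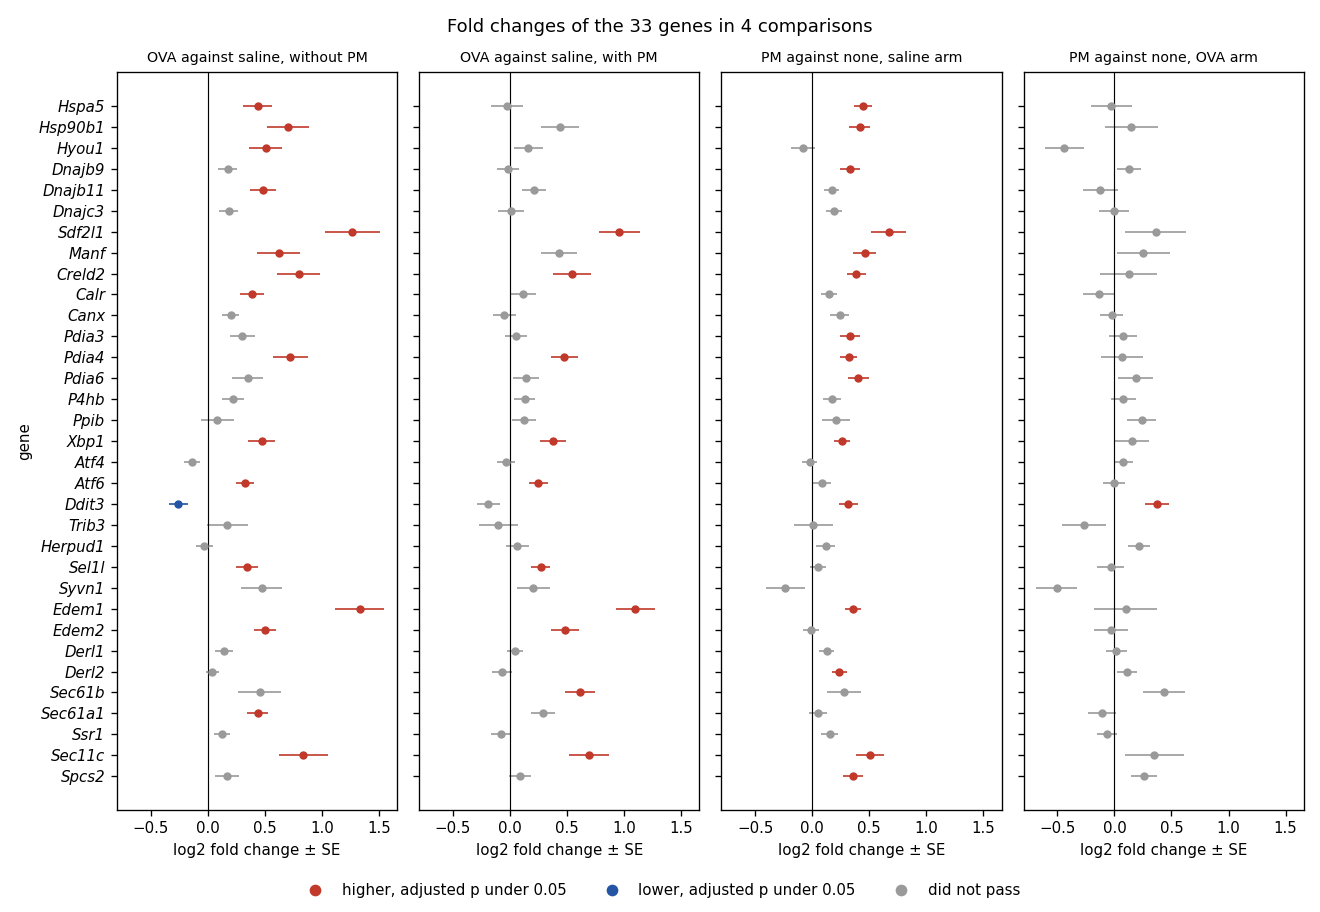
Log2 fold change (x axis) of each of the 33 genes (rows) with its standard error in 4 comparisons, each point coloured by its call. Edem1, Sdf2l1 and Sec11c lie furthest right in both OVA panels, the points of the saline arm with PM lie mostly between 0 and 0.67, and in the OVA arm 1 point, Ddit3, is coloured.

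The 3 large chaperones rose in OVA lungs, and 2 of them rose with PM in the saline arm. Changes are log2 fold changes with their standard errors. Of the levels, 3 values stand for the lowest, median and highest of the 6 libraries without PM, while 5 values are the single libraries with PM, numbered 1, 2, 4, 5 and 6 in the OVA arm and 1, 2, 3, 5 and 6 in the saline arm. Hspa5 encodes BiP, the ER chaperone of the Hsp70 family that also holds the stress sensors inactive. Hspa5 was at 745, 902, 451, 777 and 624 CPM in the OVA + PM lungs, against 480.0, 747 and 871 CPM in the OVA lungs. It was at 662, 767, 706, 823 and 665 CPM in the saline + PM lungs, against 503, 542 and 560.1 CPM in the saline lungs. All 5 saline + PM libraries lay above all 6 saline libraries, 5 of 6 OVA libraries did, and replicate 2 of the OVA lungs was below them. The log2 fold change was 0.44 ± 0.13 (adjusted p = 0.0226) for OVA and 0.45 ± 0.08 (adjusted p = 0.00587) for PM in the saline arm. In OVA + PM lungs against saline + PM lungs Hspa5 did not pass (-0.03 ± 0.14, adjusted p = 0.941), nor did PM in the OVA arm (-0.03 ± 0.18, adjusted p = 0.952). The OVA call of Hspa5 was lost without replicate 1 (0.40) or 6 (0.39) of the OVA lungs, and the PM call in the saline arm held in each alternative run.

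Hsp90b1 encodes GRP94, the Hsp90 of the ER, which folds integrins and Toll-like receptors. Hsp90b1 was at 1009, 1582, 739.5, 1451 and 1037 CPM in the OVA + PM lungs, against 579, 1083 and 1475 CPM in the OVA lungs. Levels in the saline + PM lungs were 800.5, 1062, 838, 890.3 and 747 CPM, against 591, 656 and 703 CPM in the saline lungs. The saline + PM libraries did not overlap the saline libraries, and replicate 2 was again the 1 OVA library below the saline range. Hsp90b1 rose in OVA lungs by 0.70 ± 0.18 (adjusted p = 0.0121) and with PM in the saline arm by 0.41 ± 0.09 (adjusted p = 0.018), a value that became 0.25 (adjusted p = 0.0235) with the length and GC correction and lost its call without replicate 5 of the saline + PM lungs (0.41). In OVA + PM lungs against saline + PM lungs Hsp90b1 was at 0.44 ± 0.17 (adjusted p = 0.0659). That value passed without replicate 4 of the OVA + PM lungs (0.55) or replicate 2 of the saline + PM lungs (0.52). It also passed with DESeq2 (0.44, adjusted p = 0.0357), a replicate block (0.53) and the length and GC correction (0.47). Hyou1, a large Hsp70-like protein that recharges BiP, rose in OVA lungs (0.51 ± 0.14, adjusted p = 0.0188) with 4 of 6 OVA libraries above the saline range, and was at -0.08 with PM in the saline arm. Its OVA call was lost without replicate 1 of the saline lungs (0.48) or replicate 1 (0.45), 3 (0.46) or 6 (0.43) of the OVA lungs.

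Among the co-chaperones and small ER proteins 4 of 6 rose with OVA and 4 of 6 with PM in the saline arm, Sdf2l1 most in both comparisons. Sdf2l1 is a small ER protein that works with the BiP co-chaperone ERdj3 and keeps client proteins from clumping. Sdf2l1 was at 99.0, 99.4, 39.8, 129 and 63.7 CPM in the OVA + PM lungs, against 32.2, 74.5 and 102 CPM in the OVA lungs. In saline + PM lungs the values were 39.9, 38.3, 50.5, 60.2 and 42.2 CPM, against 22.9, 29.1 and 37.2 CPM in saline lungs. Each group with PM or OVA was above the saline lungs except for replicate 2 of the OVA lungs, which lay within their range. The log2 fold change was 1.27 ± 0.24 (adjusted p = 0.00163) in OVA lungs, 0.96 ± 0.18 (adjusted p = 0.000764) in OVA + PM lungs against saline + PM lungs, and 0.67 ± 0.15 (adjusted p = 0.0192) with PM in the saline arm, where it did not pass without replicate 5 of the saline + PM lungs (0.54). PM in the OVA arm gave 0.36 ± 0.27 (adjusted p = 0.399).

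Creld2, an ER protein with disulphide isomerase activity, and Manf, a small secreted ER protein that binds BiP, are early targets of ER stress. Creld2 was at 121, 145, 49.7, 167 and 83.3 CPM in the OVA + PM lungs, against 57.2, 117 and 152 CPM in the OVA lungs. The saline + PM lungs had 76.7, 73.2, 78.9, 93.2 and 85.2 CPM, against 54.6, 64.8 and 68.0 CPM in the saline lungs. Creld2 was higher in all saline + PM libraries than in any saline library, and in 5 of 6 OVA libraries. It rose by 0.80 ± 0.19 (adjusted p = 0.00687) with OVA, by 0.39 ± 0.08 (adjusted p = 0.0169) with PM in the saline arm and by 0.54 ± 0.17 (adjusted p = 0.0253) with OVA under PM. The PM call was lost without replicate 5 of the saline + PM lungs (0.33), and the call with OVA under PM without replicate 1 (0.52), 2 (0.50) or 3 (0.53) of the saline + PM lungs or replicate 1 (0.54) or 2 (0.43) of the OVA + PM lungs. Manf was at 223, 278, 143, 347 and 178 CPM in the OVA + PM lungs, against 115, 209 and 272 CPM in the OVA lungs. It was at 175, 164, 173, 195 and 181 CPM in the saline + PM lungs, against 110.4, 125 and 163 CPM in the saline lungs. Manf rose with PM in the saline arm by 0.46 ± 0.10 (adjusted p = 0.0174), without overlap, and with OVA by 0.62 ± 0.19 (adjusted p = 0.0259), where replicates 2 and 5 of the OVA lungs lay within the saline range. The OVA call of Manf was lost without replicate 1 (0.59), 5 (0.57) or 6 (0.58) of the saline lungs or replicate 1 (0.59) or 6 (0.55) of the OVA lungs, and its PM call without replicate 5 of the saline + PM lungs (0.42). With OVA under PM it was 0.43 ± 0.16 (adjusted p = 0.0566), and passed without replicate 4 (0.50) or 6 (0.54) of the OVA + PM lungs.

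The J-domain proteins hand clients to BiP. Dnajb11 was at 156, 184, 96.2, 181 and 151 CPM in the OVA + PM lungs, against 123, 174 and 226 CPM in the OVA lungs. Levels in the saline + PM lungs were 138, 139.6, 145, 147 and 124 CPM, against 118, 124 and 132 CPM in the saline lungs. Dnajb11, which is ERdj3, was above the saline range in 5 of 6 OVA libraries and in 4 of 5 saline + PM libraries. Dnajb11 rose with OVA (0.49 ± 0.11, adjusted p = 0.00617) and did not pass with PM in the saline arm (0.17 ± 0.07, adjusted p = 0.0971). With OVA under PM it was 0.21, and 0.27, which passed, without replicate 4 of the OVA + PM lungs. Dnajb9, which is ERdj4, rose with PM in the saline arm (0.33 ± 0.09, adjusted p = 0.0274) and not with OVA (0.17 ± 0.09, adjusted p = 0.171). With the length and GC correction the PM value of Dnajb9 was 0.06 (adjusted p = 0.728), and the call was also lost without any of replicates 2, 5 and 6 of the saline lungs or any of replicates 1, 2, 3 and 5 of the saline + PM lungs (0.30 to 0.34). Dnajc3, which is P58IPK, did not pass in any comparison in the main fit (0.18 with OVA and 0.19 with PM in the saline arm). It passed with OVA once replicate 2 of the OVA lungs was left out (0.23). With DESeq2 it passed with PM in the saline arm (0.19, adjusted p = 0.0439).

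The lectin chaperones hold sugar-bearing clients while they fold. Calr, calreticulin, rose with OVA (0.39 ± 0.10, adjusted p = 0.0145), with 5 of 6 OVA libraries above the saline range, and was at 0.15 with PM in the saline arm. Canx, calnexin, was at 0.20 ± 0.07 (adjusted p = 0.0649) with OVA and 0.24 ± 0.08 (adjusted p = 0.0685) with PM in the saline arm. It passed with OVA once replicate 2 of the OVA lungs was left out (0.23). Per kilobase of the longest coding transcript, Ppib was the most abundant of the 33 in the saline lungs, with 474.4 ± 91.4 CPM per kb (SD, n = 6), followed by Calr with 309 ± 12.5, Pdia3 with 236 ± 15.8 and P4hb with 235 ± 16.1, the last 2 being closer than their SD. Lowest were the regulators Trib3 with 3.38 ± 0.844 and Atf6 with 8.69 ± 0.858 CPM per kb.

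Of the 5 folding isomerases, which make disulphide bonds or turn proline bonds, 1 rose with OVA and 3 rose with PM in the saline arm. The OVA value of Pdia3 passed with DESeq2 (adjusted p = 0.0219), library totals, the filter of 1 CPM in 5 libraries and the fit of 4 groups. Those of Pdia3 and Pdia6 both passed with a replicate block, and with the length and GC correction with or without that block. Pdia4 was at 231, 318, 199, 282 and 207 CPM in the OVA + PM lungs, against 141, 253 and 319 CPM in the OVA lungs. In saline + PM lungs the values were 188, 178, 178, 202 and 159 CPM, against 137, 145 and 157 CPM in saline lungs. Pdia4 was above the saline range in all saline + PM libraries and in 5 of 6 OVA libraries. Pdia4 rose with OVA (0.72 ± 0.15, adjusted p = 0.00349), with OVA under PM (0.48 ± 0.12, adjusted p = 0.00735) and with PM in the saline arm (0.32 ± 0.07, adjusted p = 0.0204). The last call was lost with the length and GC correction (0.20) and without replicate 5 of the saline lungs (0.30) or replicate 1 (0.30) or 5 (0.28) of the saline + PM lungs. Pdia6 was at 491, 584, 401, 619.8 and 461 CPM in the OVA + PM lungs, against 328, 461 and 563 CPM in the OVA lungs. The saline + PM lungs had 477, 453, 469.6, 507 and 444 CPM, against 302, 361 and 419.7 CPM in the saline lungs. Pdia6 rose with PM in the saline arm (0.40 ± 0.09, adjusted p = 0.0193), with no overlap between the groups, and did not pass with OVA (0.35 ± 0.14, adjusted p = 0.0878). Without replicate 1 (0.39) or 5 (0.38) of the saline + PM lungs the call of Pdia6 was lost, and without replicate 2 of the OVA lungs its OVA value passed (0.42). Pdia3, the partner of the lectin chaperones, was at 0.33 ± 0.08 (adjusted p = 0.0265) with PM in the saline arm and 0.30 ± 0.11 (adjusted p = 0.053) with OVA. The PM call of Pdia3 was lost without any 1 of replicates 1, 2, 5 and 6 of the saline lungs or of replicates 1, 2, 3 and 5 of the saline + PM lungs (0.29 to 0.34), and its OVA value passed without replicate 4 of the saline lungs (0.34) or replicate 2 (0.35) or 5 (0.33) of the OVA lungs. P4hb (0.22 with OVA) and Ppib (0.09) passed in none of the comparisons in the main fit. P4hb passed with PM in the saline arm with the length and GC correction (0.27, adjusted p = 0.0331), and with a replicate block added (0.31). Ppib passed with PM in the saline arm without replicate 3 of the saline lungs (0.30).

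**Figure D3:**
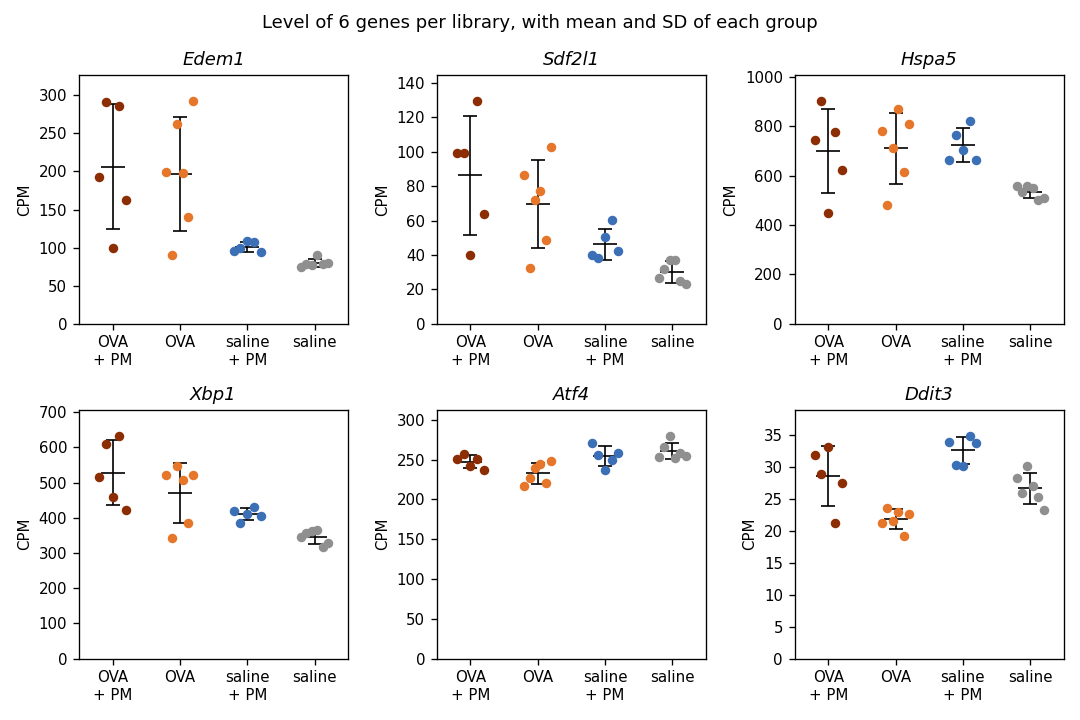
CPM of 6 genes in each library (points), with the group mean and SD (bars), by group on the x axis. Edem1 and Sdf2l1 are spread wide in both OVA groups and tight in both saline groups, Hspa5 separates the saline + PM lungs from the saline lungs, Atf4 lies between 217 and 279 CPM in all libraries, and Ddit3 is lowest in the OVA lungs.

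The regulators did not move together. Xbp1, whose spliced form drives ER expansion, rose with OVA and with PM in the saline arm. Atf4, the effector of the PERK branch, passed in no comparison in the main fit. Ddit3, a target of ATF4, fell with OVA and rose with PM. Xbp1 was at 516, 611, 458, 631 and 421 CPM in the OVA + PM lungs, against 342, 513 and 548 CPM in the OVA lungs. It was at 418, 386, 411, 430.5 and 406 CPM in the saline + PM lungs, against 316, 352 and 365 CPM in the saline lungs. All saline + PM libraries and 5 of 6 OVA libraries lay above the saline range. Xbp1 rose by 0.47 ± 0.12 (adjusted p = 0.00914) with OVA, by 0.38 ± 0.11 (adjusted p = 0.0233) with OVA under PM and by 0.26 ± 0.07 (adjusted p = 0.0316) with PM in the saline arm, and was at 0.16 ± 0.15 (adjusted p = 0.523) with PM in the OVA arm. The PM call of Xbp1 in the saline arm was lost without any 1 of replicates 1, 2, 5 and 6 of the saline lungs or of replicates 1, 3, 5 and 6 of the saline + PM lungs (0.23 to 0.27), and the call with OVA under PM without replicate 2 (0.35) or 6 (0.36) of the saline + PM lungs or replicate 2 of the OVA + PM lungs (0.31). Atf6 was at 77.8, 89.2, 59.7, 81.0 and 72.5 CPM in the OVA + PM lungs, against 66.8, 77.1 and 87.8 CPM in the OVA lungs. Levels in the saline + PM lungs were 63.5, 71.9, 71.5, 62.6 and 63.5 CPM, against 53.4, 63.7 and 71.4 CPM in the saline lungs. Atf6, the sensor that is cut to release a transcription factor, was above the saline range in 5 of 6 OVA libraries. Atf6 rose with OVA (0.33 ± 0.08, adjusted p = 0.0085) and with OVA under PM (0.25 ± 0.09, adjusted p = 0.047), and was at 0.09 ± 0.08 (adjusted p = 0.491) and -0.01 ± 0.10 (adjusted p = 0.986) with PM in the saline and OVA arms. The call with OVA under PM was lost without any 1 of replicates 1, 3, 5 and 6 of the saline + PM lungs or of replicates 1, 2 and 5 of the OVA + PM lungs (0.18 to 0.27).

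Atf4 was at 251, 257, 242, 251 and 237 CPM in the OVA + PM lungs, against 217, 233 and 248 CPM in the OVA lungs. In saline + PM lungs the values were 271, 256, 237, 250.1 and 258 CPM, against 252, 257 and 279 CPM in saline lungs. Atf4 was lower in each OVA library than in any saline library, with a small difference that did not pass by edgeR and passed by DESeq2 (-0.15, adjusted p = 0.039). The edgeR value was -0.14 ± 0.07 (adjusted p = 0.169) with OVA, -0.03 ± 0.08 (adjusted p = 0.826) with OVA under PM, -0.02 ± 0.07 (adjusted p = 0.847) in saline + PM lungs against saline lungs and 0.08 ± 0.08 (adjusted p = 0.579) in OVA + PM lungs against OVA lungs. Ddit3 was at 31.8, 28.9, 33.2, 21.2 and 27.4 CPM in the OVA + PM lungs, against 19.1, 22.04 and 23.5 CPM in the OVA lungs. The saline + PM lungs had 33.9, 30.3, 30.1, 34.8 and 33.6 CPM, against 23.2, 26.4 and 30.2 CPM in the saline lungs. Ddit3 was below the saline range in 5 of 6 OVA libraries, above it in 4 of 5 saline + PM libraries, and 4 of 5 OVA + PM libraries were above all OVA libraries. Replicate 4 of the OVA + PM lungs, which is among these 4, held 10 counts of Ddit3. Ddit3 fell with OVA (-0.26 ± 0.09, adjusted p = 0.041). It rose with PM in the saline arm (0.32 ± 0.09, adjusted p = 0.0315) and in the OVA arm (0.38 ± 0.10, adjusted p = 0.0368). With OVA under PM it was -0.19 ± 0.10 (adjusted p = 0.195). These calls were fragile. The OVA call of Ddit3 was lost without any 1 of replicates 1, 2, 3 and 4 of the saline lungs or of replicates 1, 3, 5 and 6 of the OVA lungs (-0.27 to -0.21), and the call with PM in the saline arm without any 1 of replicates 2, 5 and 6 of the saline lungs or of replicates 1, 3, 5 and 6 of the saline + PM lungs (0.27 to 0.34). The call with PM in the OVA arm was lost without any 1 of replicates 1, 3, 5 and 6 of the OVA lungs or of replicates 1, 2 and 6 of the OVA + PM lungs (0.32 to 0.40). Its transcript is short, at 890 bases, and with the length and GC correction the PM values were 0.16 (adjusted p = 0.144) in the saline arm and 0.17 (adjusted p = 0.397) in the OVA arm. Trib3, a pseudokinase that damps this branch, had 3.90 to 11.3 CPM in the groups without PM, and passed in no comparison (0.17 with OVA and 0.01 with PM in the saline arm).

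Of the 7 genes of ER-associated degradation, which sends misfolded protein back to the cytosol, 3 rose with OVA and 2 rose with PM in the saline arm. Edem1 and Edem2 trim mannose from clients and so mark them for degradation. Edem1 was at 192, 291, 99.5, 286 and 162 CPM in the OVA + PM lungs, against 90.9, 198 and 292 CPM in the OVA lungs. It was at 95.9, 99.95, 109, 107 and 94.0 CPM in the saline + PM lungs, against 74.3, 79.0 and 89.7 CPM in the saline lungs. No OVA library overlapped the saline libraries, even replicate 2, and no saline + PM library did. Edem1 rose by 1.33 ± 0.22 (adjusted p = 0.000471) with OVA, which is 2.52-fold, by 1.10 ± 0.17 (adjusted p = 0.000184) with OVA under PM and by 0.36 ± 0.07 (adjusted p = 0.0122) with PM in the saline arm, and was at 0.10 ± 0.28 (adjusted p = 0.86) with PM in the OVA arm. The OVA groups were wide, with an SD of 82.4 CPM in OVA + PM lungs and 74.5 CPM in OVA lungs, against 6.64 CPM in saline + PM lungs and 5.20 CPM in saline lungs.

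Edem2 was at 128, 133, 89.5, 180.3 and 105 CPM in the OVA + PM lungs, against 101, 130.0 and 159 CPM in the OVA lungs. Levels in the saline + PM lungs were 90.3, 87.0, 97.2, 98.2 and 88.5 CPM, against 84.5, 95.8 and 100.4 CPM in the saline lungs. Edem2 was above the saline range in all 6 OVA libraries, and the saline + PM libraries lay within it. Edem2 rose with OVA (0.51 ± 0.10, adjusted p = 0.0016) and with OVA under PM (0.48 ± 0.12, adjusted p = 0.00728), and was at -0.01 ± 0.07 (adjusted p = 0.916) with PM in the saline arm. Sel1l holds the Hrd1 ubiquitin ligase complex together. Sel1l was at 188, 179, 129, 175 and 163 CPM in the OVA + PM lungs, against 136, 177 and 201 CPM in the OVA lungs. In saline + PM lungs the values were 141, 150.2, 139.7, 144 and 139 CPM, against 123, 137 and 153 CPM in saline lungs. Sel1l lay above the saline range in 4 of 6 OVA libraries and above the saline + PM range in 4 of 5 OVA + PM libraries. Sel1l rose with OVA (0.35 ± 0.09, adjusted p = 0.015) and with OVA under PM (0.27 ± 0.08, adjusted p = 0.0237). The first call was lost without replicate 3 (0.31) or 6 (0.30) of the OVA lungs, and the second without any 1 of replicates 1, 3, 5 and 6 of the saline + PM lungs or of replicates 1 and 2 of the OVA + PM lungs (0.23 to 0.27). Syvn1, the Hrd1 ligase itself, was at 0.47 ± 0.18 (adjusted p = 0.0718) with OVA and passed without replicate 5 of the saline lungs (0.56) or replicate 2 (0.54) or 4 (0.54) of the OVA lungs. Its OVA value also passed with all 4 groups in 1 fit (0.45), a replicate block (0.47), the length and GC correction (0.45) and the last 2 together (0.43). Derl2, a derlin of the exit channel, rose with PM in the saline arm (0.24 ± 0.06, adjusted p = 0.0298) without overlap, and was at 0.11 with the length and GC correction. Its call was lost without any 1 of replicates 2, 5 and 6 of the saline lungs or of replicates 1, 2, 3 and 5 of the saline + PM lungs (0.22 to 0.24). Derl1 (0.14 with OVA) and Herpud1, a stress-induced scaffold of the complex (-0.03 with OVA and 0.12 with PM in the saline arm), passed nowhere.

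At the entry to the ER, the signal peptidase subunits Sec11c and Spcs2 rose with PM in the saline arm, and Sec11c and the channel subunit Sec61a1 rose with OVA. Sec11c was at 166, 206, 76.3, 296 and 163 CPM in the OVA + PM lungs, against 82.3, 154 and 204 CPM in the OVA lungs. The saline + PM lungs had 116, 128, 110.2, 123 and 107 CPM, against 65.6, 83.4 and 109 CPM in the saline lungs. Sec11c, a catalytic subunit, was above the saline range in 4 of 6 OVA libraries and in 4 of 5 saline + PM libraries. Sec11c rose with OVA (0.84 ± 0.21, adjusted p = 0.0113), with OVA under PM (0.69 ± 0.17, adjusted p = 0.00707) and with PM in the saline arm (0.51 ± 0.12, adjusted p = 0.0225). The PM value of Sec11c became 0.20 (adjusted p = 0.0358) with the length and GC correction, and the call was lost without replicate 1 (0.51), 2 (0.48) or 5 (0.49) of the saline + PM lungs. Spcs2 was at 258, 286, 186, 268 and 239 CPM in the OVA + PM lungs, against 176, 212 and 242 CPM in the OVA lungs. It was at 252, 235, 239.5, 246 and 223 CPM in the saline + PM lungs, against 163, 189.7 and 214 CPM in the saline lungs. Spcs2, an accessory subunit, rose with PM in the saline arm (0.36 ± 0.09, adjusted p = 0.0221) with no overlap, and was at 0.17 with OVA. Its call was lost without replicate 5 of the saline lungs (0.32) or replicate 1 (0.33), 3 (0.36) or 5 (0.35) of the saline + PM lungs.

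Sec61a1 forms the channel and Sec61b is its small beta subunit. Sec61a1 was at 261, 281, 196, 289 and 219 CPM in the OVA + PM lungs, against 218, 266 and 310.5 CPM in the OVA lungs. Levels in the saline + PM lungs were 213, 185, 212, 229 and 200.2 CPM, against 180.3, 202 and 224 CPM in the saline lungs. Sec61a1 was above the saline range in 5 of 6 OVA libraries, and the saline + PM libraries overlapped the saline ones. Sec61a1 rose with OVA (0.44 ± 0.09, adjusted p = 0.00312) and was at 0.29 ± 0.10 (adjusted p = 0.0547) with OVA under PM, which passed without replicate 4 (0.33) or 6 (0.35) of the OVA + PM lungs. Sec61b was at 131, 123, 86.2, 185 and 101 CPM in the OVA + PM lungs, against 67.3, 93.0 and 132 CPM in the OVA lungs. In saline + PM lungs the values were 84.9, 73.8, 82.1, 93.4 and 78.6 CPM, against 52.4, 66.4 and 101 CPM in saline lungs. Sec61b was above the saline + PM range in 4 of 5 OVA + PM libraries. It rose with OVA under PM (0.61 ± 0.13, adjusted p = 0.00286) and was at 0.46 ± 0.19 (adjusted p = 0.0975) with OVA, which passed without replicate 3 of the saline lungs (0.60) or replicate 2 of the OVA lungs (0.54). Sec61b was at 0.44 ± 0.19 (adjusted p = 0.139) with PM in the OVA arm, and passed without replicate 4 of the OVA lungs (0.53), as it did with PM in the saline arm without replicate 3 of the saline lungs (0.42). With the length and GC correction Sec61b turned to the other side of 0, at -0.04 (adjusted p = 0.904) with PM in the OVA arm and -0.05 (adjusted p = 0.679) with PM in the saline arm. Its value with OVA passed with that correction (0.42, adjusted p = 0.00396), with a replicate block (0.46) and with both (0.40). Ssr1, a subunit of the translocon-associated TRAP complex, passed in no comparison in the main fit (0.13 with OVA). It passed with PM in the saline arm with the length and GC correction (0.21).

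Genes with and without an ERSE in the promoter were among those that rose. With OVA, 4 of the 8 with the element rose and 7 of the 19 without it, with median log2 fold changes of 0.41 and 0.22. With PM in the saline arm, 4 of 8 and 9 of 19 rose, with medians of 0.31 and 0.24. Of all genes 14.4% rose with OVA and 5.47% with PM in the saline arm. The 19 include Dnajb11 and Herpud1, which hold ERSE-II, and Dnajb11 rose with OVA. Edem1, Sdf2l1 and Pdia4, which rose in both comparisons, hold none of the 4 motifs within the searched window. Syvn1, which holds an ERSE, passed in neither in the main fit, and its OVA value passed in the alternative runs given above. Hyou1, Manf, Atf6, Sec61a1 and Sec11c, which rose with OVA, had no promoter and are not counted here. No test was made of these splits.

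Further genes of these pathways were read from lists by pathway, which were written with earlier results of these data known, and a few of them had larger changes. Of all genes 14.4% rose and 9.27% fell with OVA. Of 11 sensors and feedback genes tested with OVA, 4 rose and 0 fell. Ern2, the IRE1 form of mucus-secreting epithelium, rose by 3.98 ± 0.47 (adjusted p = 3.38e-05), and Bhlha15, a transcription factor of secretory cells, by 2.30 ± 0.42 (adjusted p = 0.00125). Ern2 was at 0, 5.78 and 8.07 CPM (lowest, median and highest) in OVA + PM lungs, 1.90, 7.26 and 8.60 CPM in OVA lungs, 0.0984, 0.800 and 1.82 CPM in saline + PM lungs and 0, 0.302 and 1.27 CPM in saline lungs. Of 16 further degradation genes 4 rose, led by Derl3, the derlin of secretory cells (3.04 ± 0.45, adjusted p = 0.000214), and of 30 further folding genes 9 rose and 1 fell, with Agr2, a disulphide isomerase needed for mucin, at 3.63 ± 0.42 (adjusted p = 3.25e-05). Of 26 further entry and glycosylation genes 7 rose and 1 fell. Of 17 targets of ATF4 and the integrated stress response 7 rose and 1 fell, with a median log2 fold change of 0.06, and the leading gene was Mthfd2 of mitochondrial folate metabolism (1.44 ± 0.18, adjusted p = 5.92e-05).

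With PM in the saline arm, where 5.47% of all genes rose and 7.37% fell, 0 of 10 sensors and feedback genes passed, and their median log2 fold change was -0.25. Of the 17 ATF4 targets 4 rose and 1 fell, with the cystine transporter gene Slc7a11 at 1.58 ± 0.21 (adjusted p = 0.00168) and Sesn2 at -0.67 ± 0.16 (adjusted p = 0.0223). Of the 30 folding genes 4 rose and 1 fell, Agr2 again leading (2.17 ± 0.41, adjusted p = 0.00883), of 16 degradation genes 1 rose (Derl3, 0.93 ± 0.20, adjusted p = 0.0163) and 1 fell, and of 26 entry genes 5 rose and 0 fell. With PM in the OVA arm, where 2.27% of all genes rose and 6.87% fell, 1 sensor gene, Creb3l2 (-0.67 ± 0.15, adjusted p = 0.0206), and 1 folding gene, Fkbp10 (-0.86 ± 0.17, adjusted p = 0.0155), fell, and no other gene of the 5 lists passed. With OVA under PM the genes that rose were 3 of 11 sensors, 7 of 17 ATF4 targets, 8 of 30 folding genes, 4 of 16 degradation genes and 3 of 26 entry genes, and 1, 2, 2, 0 and 0 fell, against 13.2% of all genes that rose and 9.57% that fell. The share of entry genes that rose was near that of all genes.

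Markers of other cell types moved in the same libraries. Of 7 plasma cell markers 5 rose with OVA, 5 rose with OVA under PM and 5 rose with PM in the saline arm, and 0 of 7 passed with PM in the OVA arm. Their summed level was 484 to 5480 CPM in OVA + PM lungs, 675 to 4050 CPM in OVA lungs, 817 to 1290 CPM in saline + PM lungs and 498 to 742 CPM in saline lungs, and the plasma cell marker Tnfrsf17 was at 0 in a single OVA + PM library. The 33 ER genes summed to 7570 to 11600 CPM in OVA + PM lungs, 7080 to 11100 CPM in OVA lungs, 8050 to 9290 CPM in saline + PM lungs and 7030 to 7700 CPM in saline lungs. The 2 OVA libraries with the lowest plasma cell sum in their groups, replicate 4 of the OVA + PM lungs at 484 CPM and replicate 2 of the OVA lungs at 675 CPM, were those with the lowest ER sums, 7574 and 7085 CPM. The saline + PM lungs lay above the saline lungs in both sums without overlap. In these 2 OVA libraries the plasma cell sum held Jchain at 129 and 241 CPM and Sdc1 at 295 and 329 CPM. Sdc1 was at 219 to 329 CPM in OVA lungs and 281 to 350 CPM in saline lungs. In replicate 2 of the OVA lungs Mzb1, Irf4 and Pou2af1 lay above every saline library, and the other markers within the saline range. In replicate 4 of the OVA + PM lungs only Pou2af1 did. Of 8 goblet cell markers 8 rose with OVA, 8 rose with OVA under PM and 2 of 7 tested rose with PM in the saline arm, and the goblet marker Foxa3 was at 0 in some libraries of the OVA + PM and saline lungs. The goblet sum was 587 to 9070 CPM in OVA + PM lungs, 902 to 8930 CPM in OVA lungs, 95.7 to 640 CPM in saline + PM lungs and 45.2 to 261 CPM in saline lungs. Monocyte and macrophage markers rose in 8 of 8 with OVA and in 5 of 8 with PM in the saline arm, with sums of 1270 to 2120 CPM in OVA + PM lungs, 1220 to 1880 CPM in OVA lungs, 750 to 892 CPM in saline + PM lungs and 518 to 804 CPM in saline lungs. Of 6 proliferation genes 6 rose with OVA and 3 with PM in the saline arm, and of 7 endothelial markers 4 fell with OVA, 6 with PM in the saline arm and 6 with PM in the OVA arm. With OVA under PM 8 of 8 monocyte and macrophage markers and 6 of 6 proliferation genes rose, and 6 of 7 endothelial markers fell. Of 3 club cell markers 3 fell with OVA and 3 with OVA under PM, with sums of 16600 to 40200 CPM in OVA + PM lungs, 12000 to 27900 CPM in OVA lungs, 35500 to 50200 CPM in saline + PM lungs and 26400 to 52000 CPM in saline lungs. Of 6 alveolar type 1 markers 4 fell with OVA and 6 with OVA under PM, and of 6 alveolar type 2 markers 1 fell in each. The alveolar type 1 sum was 3730 to 5390 CPM in OVA + PM lungs, 3930 to 6370 CPM in OVA lungs, 6140 to 6630 CPM in saline + PM lungs and 5970 to 6980 CPM in saline lungs. Of 4 eosinophil markers tested 3 rose with OVA, 4 with OVA under PM and 3 with PM in the saline arm, with sums of 59.7 to 165 CPM in OVA + PM lungs, 51.6 to 137 CPM in OVA lungs, 54.5 to 67.7 CPM in saline + PM lungs and 27.8 to 77.9 CPM in saline lungs. Epx, the eosinophil peroxidase, was at 0 in replicate 4 of the OVA + PM lungs, replicate 2 of the OVA lungs, 2 of 5 saline + PM lungs and 6 of 6 saline lungs. The part of these cells in the ER gene changes was not tested.

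**Figure D4:**
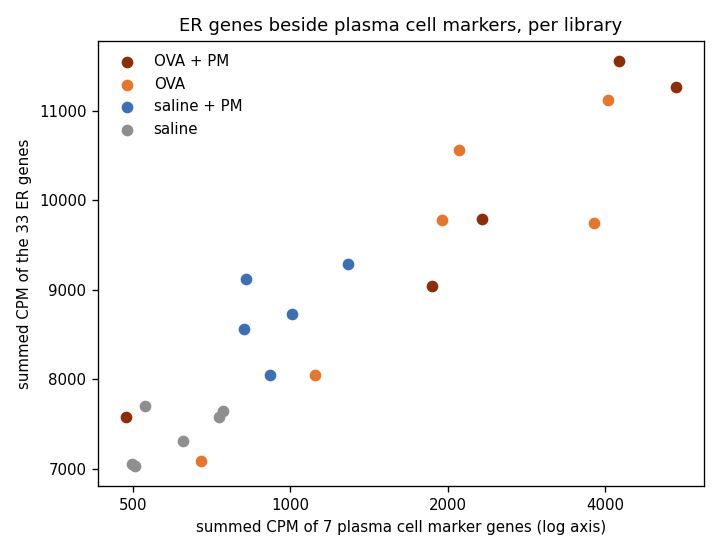
Summed CPM of the 33 ER genes (y axis, which starts above 0) against the summed CPM of 7 plasma cell markers (x axis, log scale), 1 point per library and coloured by group. Libraries of the 2 OVA groups reach the upper right, the 6 saline lungs lie at 498 to 742 CPM on the x axis, the 5 saline + PM lungs lie between, and 1 library of each OVA group lies among the saline lungs.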

How the data were processed

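Lung RNA of 22 libraries was sequenced from 400 ng of total RNA with a stranded poly(A) kit on a NextSeq (single-end, 75 cycles, 24 libraries to a pool), per the labels' protocols. The values are whole-number read counts per gene that the authors deposited as raw count tables, with bcl2fastq and the mm10 build named in the submitters' processing notes. No aligner or counter is named (not given in the sources used here). These tables overlap in 12 columns, all identical, and were joined by symbol. 16 rows whose symbols had been turned into dates (0.152 to 0.195% of counts) were left out, and 24405 of 24421 were used.

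Each comparison was fitted across all genes of its 2 groups with edgeR's quasi-likelihood test (edgeR 4.0.16, limma 3.58.1, R 4.3.3), trimmed-mean scaling, a filter at a minimum count of 10 (total 15) and Benjamini-Hochberg adjusted p under 0.05; the interaction used all 4 groups. Errors beside log2 fold changes are standard errors, taken as the size of the change over the square root of F. CPM used 1 scaling over all libraries. Replicates differed by more than sampling noise (chi-square per degree of freedom 2.57 to 81.5), so none was counted once for another. The fits were also run on simulated counts with set fold changes. These held no library that stands apart and no length or GC trend, so calls that depend on those were not checked.

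Alternatives were DESeq2 1.42.0, its size factors, library totals, 1 fit over the 4 groups, no filter on low counts, at least 1 CPM in 5 libraries, a replicate block, an offset for length and GC (splines with 4 degrees of freedom over genes of at least 10 CPM, 23361 genes matched to GENCODE M21), both together, leaving out libraries under 2 M counts, and leaving out each library. Leaving out both libraries that stood apart was added after seeing the data. The genes and lists were chosen with earlier results of these data known. Named genes are up to 10 members past the threshold with the smallest p in each comparison with Hspa5, Xbp1, Atf4, Atf6 and Ddit3, and up to 4 from each further list; the others are named by value range. Promoters are from RefSeq on GRCm38.p6, and Python 3.11.15, pandas 2.3.3, numpy 2.4.6 and matplotlib 3.10.9 were used.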

Additional observations from a re-analysis of the deposited data

Results flagged for a closer look

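A single library lay far from the others of its group in 2 of the 132 combinations of gene and group of 5 or 6 libraries that were examined, where chance flags about 1 in 20. Herpud1 was at 244.0 CPM in replicate 3 of the saline lungs, against 220.0 CPM in the next highest of the 6, a gap of 0.647 of the group's range. Edem1 was at 89.7 CPM in replicate 4 of the saline lungs, against 80.0 CPM in the next highest, a gap of 0.629 of the range. Without that library the log2 fold change of Edem1 was 0.39 with PM in the saline arm.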

How the results depend on the processing

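Most same-numbered libraries did not correlate best with each other, which cannot show that the replicate numbers carry no pairing. Same-numbered libraries deviated with correlations of -0.197 to 0.722 over 6 pairs of OVA and saline lungs, -0.181 to 0.171 over 5 pairs of saline + PM and saline lungs, -0.269 to 0.194 over 5 pairs of OVA + PM and OVA lungs, and -0.096 to 0.195 over 4 pairs of OVA + PM and saline + PM lungs, and 1, 2, 1 and 1 of these pairs correlated best with their own number. With the replicate block, the count of genes called for PM was 3193 in the saline arm (1862 without it) and 565 in the OVA arm (1339 without it), where 0 of the 33 were then higher, and Hspa5 with OVA under PM was 0.06.

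With OVA, DESeq2 called 2 of the 33 lower. The replicate block called 4238 genes there, and the block with the length and GC offset 5325, against 3456 in the main fit. With PM in the saline arm, all 4 groups in 1 fit left 7 of the 33 higher. With PM in the OVA arm, genes called were 2054 with library totals, 147 with the offset, 6 with offset and block, 3472 without the libraries under 2 M counts and 890 without the 2 libraries that stood apart. Of the 33, 0 were higher with library totals, offset, or offset and block, 3 without the small libraries, and 1 was lower with library totals and without the small libraries. In that comparison Atf6 was 0.02 with DESeq2, 0.01 with its size factors and in the fit of 4 groups, 0.00 with the block, 0.14 with the offset, 0.16 with both, and 0.02 without the small libraries. Atf4 was -0.02 with library totals and Hspa5 0.14 without the small libraries. Hspa5 with OVA under PM was 0.07 with offset and block and 0.06 without the small libraries. The interaction called 24 genes with DESeq2 and 22 without the 2 libraries that stood apart, and Ddit3 was -0.01 in it with library totals. The cause was not tested.

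Leaving out each library gave 2554 to 4127 genes and 12 to 22 of the 33 higher and 0 to 1 lower with OVA, 490 to 4112 genes and 2 to 17 higher with PM in the saline arm, 0 to 3396 genes and 0 to 2 higher and 0 to 2 lower with PM in the OVA arm, and 2259 to 3483 genes and 6 to 14 higher with OVA under PM. The interaction called 8 to 27. Values near 0 changed sign there: Atf4 ranged from -0.05 to 0.01 with PM in the saline arm, Hspa5 from -0.12 to 0.08 and Atf6 from -0.06 to 0.03 with PM in the OVA arm, and Hspa5 from -0.13 to 0.07 with OVA under PM. No called gene of the 33 changed sign under any alternative run. The depth of 0.302 M counts in replicate 4 of the OVA + PM lungs limits the precision of low genes such as Trib3 (2 counts) and Ddit3 (10 counts). In that library Ern2, Tnfrsf17, Foxa3 and Epx were at 0.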
